A study of Mus musculus with 14 samples.

Results

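The subject here is a set of 48 genes for mitosis and cytokinesis, the steps in which a cell sorts its copied chromosomes onto a spindle and then divides. The genes were chosen by symbol from a fixed list of kinases, cyclins, kinetochore and spindle proteins, mitotic kinesins and cytokinesis factors, by a rule that uses no measured value, although the list was drawn up with earlier results of these data known. All 48 are among the 53465 genes of the deposited count table, and all 48 passed the filter on low counts that left 10791 genes for testing.

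Levels were measured by polyA RNA sequencing in KL974, a mouse acute myeloid leukemia (AML) line with the genotype Trp53R172H;shMll3;shNf1 in every library, controls included. The cells carried a lentiviral hairpin RNA that doxycycline turns on together with blue fluorescent protein (BFP), so that sorting on BFP parted cells with an induced hairpin (BFP+) from cells without it (BFP-). The 7 groups of 2 libraries were shRen713, the control hairpin, in untreated cells at day 0, in BFP- and BFP+ cells after 2 days and after 4 days of doxycycline, and shOgdh346 and shOgdh2081, both against Ogdh, in BFP+ cells after 4 days. Ogdh encodes a subunit of the 2-oxoglutarate dehydrogenase complex of the tricarboxylic acid cycle. A single line was used, and no label says that the 2 replicates of a group are separate cultures, so the p-values measure the spread between these libraries, which may be technical. Day 0 cells were not described as sorted, and any comparison with them joins time, doxycycline and sorting.

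Entry into mitosis is driven by CDK1 bound to cyclins A and B and freed from its brakes by CDC25 phosphatases. Aurora and Polo kinases then build the spindle, kinetochores tie chromosomes to its microtubules under the watch of the spindle checkpoint, and the anaphase-promoting complex (APC/C) ends the process by destroying cyclins and securin. Most of these genes are transcribed in late S phase, G2 and mitosis and are kept low earlier in the cycle, largely through a promoter element called the cell cycle genes homology region (CHR), which is often found near CCAAT boxes bound by NF-Y. The summed level of such genes is therefore often read as a measure of proliferation, but in RNA from many cells fewer cells in G2 and mitosis and less RNA in each of them cannot be told apart.

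The genes share these promoter letters, which the choice of the genes did not use. RefSeq promoters on GRCm38.p6, each running from 250 bases before to 50 bases after a transcription start, were found for 40 of the 48 genes, as 42 promoters. They were searched on both strands for the CHR hexamers TTTGAA and TTTAAA and for the pentamer CCAAT. A hexamer and a pentamer may overlap in sequence, and each was then counted. A CHR hexamer stood in 36 of the 42 promoters (85.7%), against 19.6% of the 10583 promoters of all tested genes, 27.6% of the 32851 promoters in the table and 21.7% of 46 promoters of DNA replication genes. A CCAAT pentamer stood in 76.2% of the 42, against 38.6% for tested genes, and both motifs stood in 71.4%, against 7.97%.

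In the following 3 promoters both motifs lay within 120 bases upstream of the start, and they are shown because they give the full arrangement. Capitals mark CHR hexamers and CCAAT pentamers in either direction. Ckap2l is from chr2:129297213-129297332 (minus strand), Kif11 from chr19:37376262-37376381 (plus strand) and Top2a from chr11:99024190-99024309 (minus strand).
Ckap2l: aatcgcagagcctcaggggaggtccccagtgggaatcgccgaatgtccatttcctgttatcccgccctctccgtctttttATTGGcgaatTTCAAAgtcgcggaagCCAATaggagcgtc
Kif11: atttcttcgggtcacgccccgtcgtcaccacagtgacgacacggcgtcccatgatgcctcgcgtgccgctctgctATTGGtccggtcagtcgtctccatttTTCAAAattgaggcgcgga
Top2a: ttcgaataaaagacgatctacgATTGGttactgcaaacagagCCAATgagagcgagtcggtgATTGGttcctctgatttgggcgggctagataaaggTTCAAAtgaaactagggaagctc

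The CHR hexamer lay close to the start. In the 50 bases after it, 50% of the 42 promoters held one, against 2.14% of those of tested genes. In the 100 bases before it the shares were 33.3% and 5.49%. The 30 bases around the hexamer nearest to the start are shown for 6 genes that were called higher after Ogdh knockdown and, after them, for 5 that were not called, so that the sites can be compared. Capitals mark the hexamer, and positions count its first base from the start (1 is the first transcribed base, -1 the base before it).
Aurka: tttgactcctatTTTAAAaggagaaccttt
Ccnb1: agcggcccggggTTTAAAcctaagcccggc
Cenpf: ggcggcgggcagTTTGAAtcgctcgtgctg
Kif18b: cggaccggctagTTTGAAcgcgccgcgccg
Hmmr: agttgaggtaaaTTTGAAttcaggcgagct
Aspm: ggaggcgcgataTTTGAAccgagcaaaagc
Plk1: gcgggtttgtatTTTAAAtccccgcggcca
Cdk1: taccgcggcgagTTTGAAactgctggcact
Ccnb2: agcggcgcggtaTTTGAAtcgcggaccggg
Cdc20: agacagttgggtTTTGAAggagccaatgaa
Racgap1: ctggtgcgtgatTTTGAAccggatctggcg

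The hexamers begin at 18 in Aurka (chr2:172370536-172370565, minus strand), -42 in Ccnb1 (chr13:100786511-100786540, minus), 3 in Cenpf (chr1:189688067-189688096, minus), 4 in Kif18b (chr11:102925104-102925133, minus), 9 in Hmmr (chr11:40733412-40733441, minus) and 7 in Aspm (chr1:139454767-139454796, plus). They begin at -29 in Plk1 (chr7:122159394-122159423, plus), -15 in Cdk1 (chr10:69352910-69352939, minus), 5 in Ccnb2 (chr9:70421533-70421562, minus), -18 in Cdc20 (chr4:118437344-118437373, minus) and 6 in Racgap1 (chr15:99651634-99651663, minus). The hexamer did not part the genes called after knockdown from the others: it stood in 82.4% of the 17 promoters of called genes and in 88% of the 25 promoters of genes that were not called. A match is a description of the letters and not of a bound site.

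All 48 genes were expressed in every library. Library totals ran from 913482 to 10271698 counts, an 11.2-fold range, and the lowest count of any of the 48 in any library was 21, for Pttg1 in the shallowest library. Divided by the deposited transcript length, the mean level over the 14 libraries was highest for Top2a, the topoisomerase that untangles sister chromatids, at 150.4 counts-per-million (CPM) per kilobase. Mki67, whose protein coats mitotic chromosomes, had 122, Cdc20 119.8 and Kif11 86.2 CPM per kilobase. At the other end stood Kif14 (9) and Cit (10.6 CPM per kilobase). The median transcript was 4520 bases long for the 48 genes and 4300 bases for all tested genes. Exons of 12 of the 48 overlap another gene: Plk1, Ccna2, Cdc25b, Cdc25c, Cdc20, Ube2c, Kif4, Kif20a, Prc1, Nusap1, Ckap2l and Top2a. The other gene lies on the same strand for Top2a and on the opposite strand for the rest. Because the strand setting of the counting is not given, reads of the opposite pairs cannot be assigned with certainty. For Top2a a strand setting would not part the reads.

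Ogdh itself was checked first. Ogdh measured 247 and 267 CPM in the BFP+ control, 60.8 and 60.8 CPM for shOgdh346 and 51.5 and 52.3 CPM for shOgdh2081 at day 4, and its other 8 control values lay between 211 and 312 CPM. All 4 hairpin libraries lay far below every control library (log2 -2.19 ± 0.09, edgeR adjusted p = 1.63e-30). The cell type was also checked. Kit, a receptor of blood progenitors, was at 464 to 578 CPM, but the progenitor genes Cd34 and Flt3 had only 2 and 3 reads over all 14 libraries. The leukocyte gene Ptprc was at 5.33 to 15.5 CPM. The myeloid genes Cebpa, Elane and Itgam were at 0 in every library. Summed over all 14 libraries, Mpo and Ctsg had 1 read each, Csf1r 3, Prtn3 5 and Spi1 50. Markers of granulocytes and monocytes were thus at or near 0 in a line labelled as myeloid leukemia. All 11 erythroid genes on the marker list were expressed. Among the lymphocyte genes, Cd3e, Cd4, Cd8a and Nkg7 were at 0.

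The 48 genes together were higher in all 4 Ogdh hairpin libraries than in any control library. Their summed level was 11163 and 11498 CPM for shOgdh346 and 11225 and 11163 CPM for shOgdh2081, against 9758 and 10044 CPM in control BFP+ cells and 9576 and 9794 CPM in control BFP- cells at day 4. The other control libraries held 9610 and 9714 CPM at day 0, 9235 and 9456 CPM in BFP- cells and 9062 and 9269 CPM in BFP+ cells at day 2. The 4 hairpin libraries thus had the highest sums, with no overlap with the control libraries, while the BFP+ and BFP- control libraries of day 2 overlapped each other. Top2a and Mki67 alone make up a large part of each sum, so the median gene is also given: relative to the mean of control BFP+ cells at day 4, it stood at 0.19 and 0.20 (log2) in the shOgdh346 and at 0.19 and 0.15 in the shOgdh2081 libraries, and between -0.19 and 0.01 in all 10 control libraries.

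**Figure D1:**
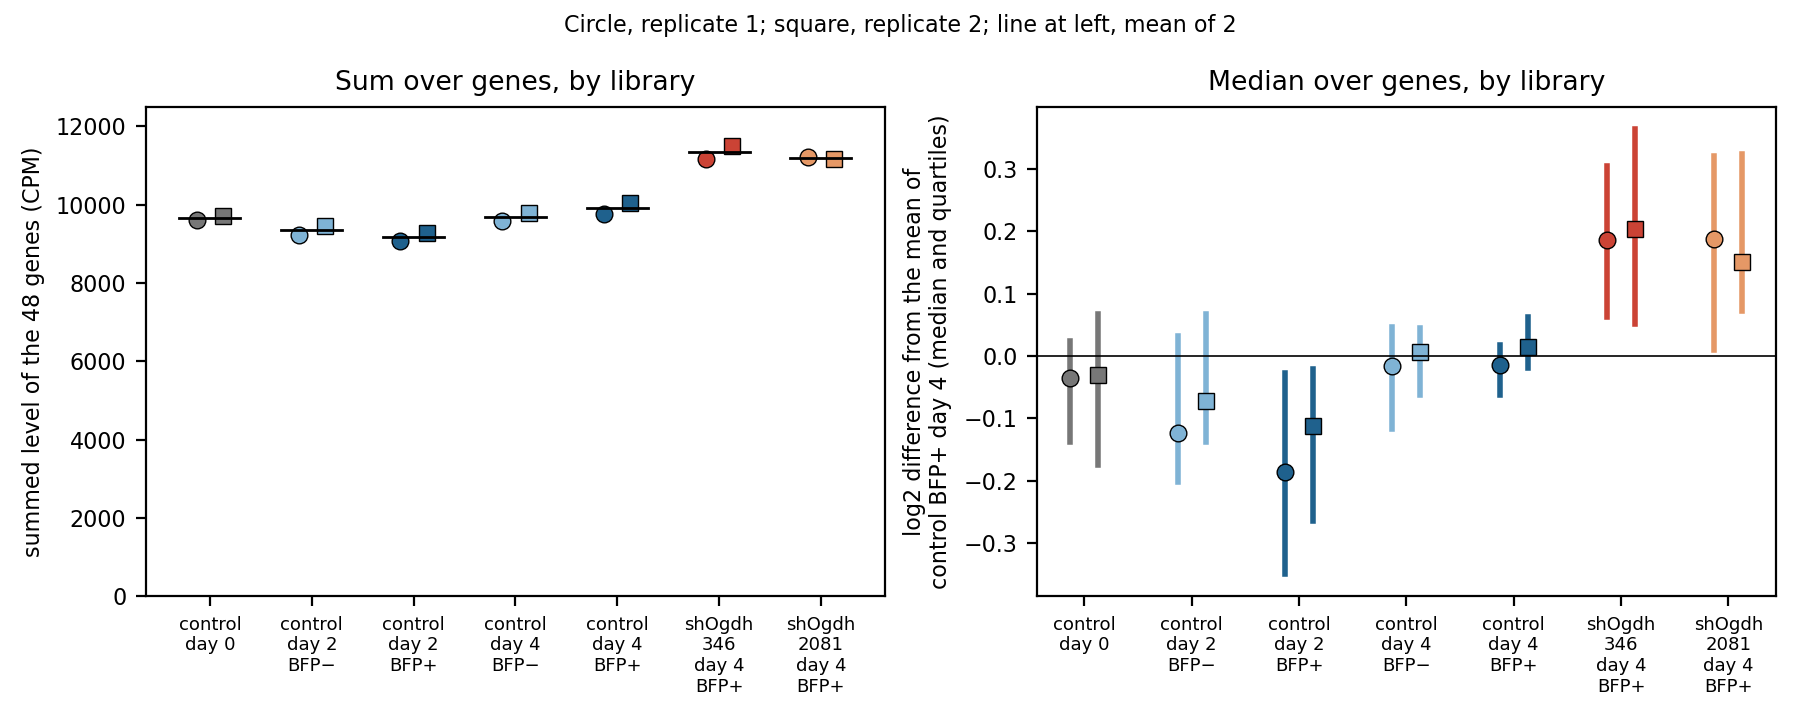
Left, summed level of the 48 genes in CPM for each of the 14 libraries, with a line at the mean of the 2 libraries of a group; right, the median over the 48 genes of the log2 difference from the mean of control BFP+ cells at day 4, with bars from the lower to the upper quartile of the genes. The 4 Ogdh hairpin libraries sit at 11163 to 11498 CPM, above the highest control library at 10044 CPM.

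After Ogdh knockdown, 18 of the 48 genes rose and none fell. The test compared the mean of both hairpins with control BFP+ cells at day 4. Of all 10791 genes tested, 16.1% were called in this comparison, 7.72% as higher and 8.36% as lower. At an unadjusted p under 0.05, edgeR gave 26 of the 48 as higher and 0 as lower. The share of all genes at that unadjusted threshold was not counted. DESeq2 called 12 as higher and 0 as lower at the adjusted threshold, without Ttk, Kif20a, Kif23, Prc1, Cit and Ckap2. Of all 10791 genes, DESeq2 called 327 as higher and 373 as lower. The median log2 fold change was 0.18 for the 48 genes and 0.00024 for all genes, and 42 of the 48 values were positive against 50.1% of all genes. In 25 of the 48 all 4 hairpin libraries lay above both libraries of the control, as did 17.1% of all genes, and 20 of the 48 lay above all 10 control libraries, as did 6.89% of all genes. The changes were small, from 0.23 for Kif20a to 0.59 for Cdc25b among the called genes, which is 1.17-fold to 1.51-fold. With 1 library of these groups left out at a time, fewer of the 48 and fewer of all genes were called in each fit. The median log2 fold change of the 48 then lay between 0.16 and 0.19. Counts thinned to the depth of the shallowest library gave 11 called genes of the 48, where 381 of all 9206 genes tested were called as higher and 339 as lower. Aurka, Cdc25b, Cenpf, Anln, Aspm and Ckap2l were called under every alternative that was run.

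**Figure D2:**
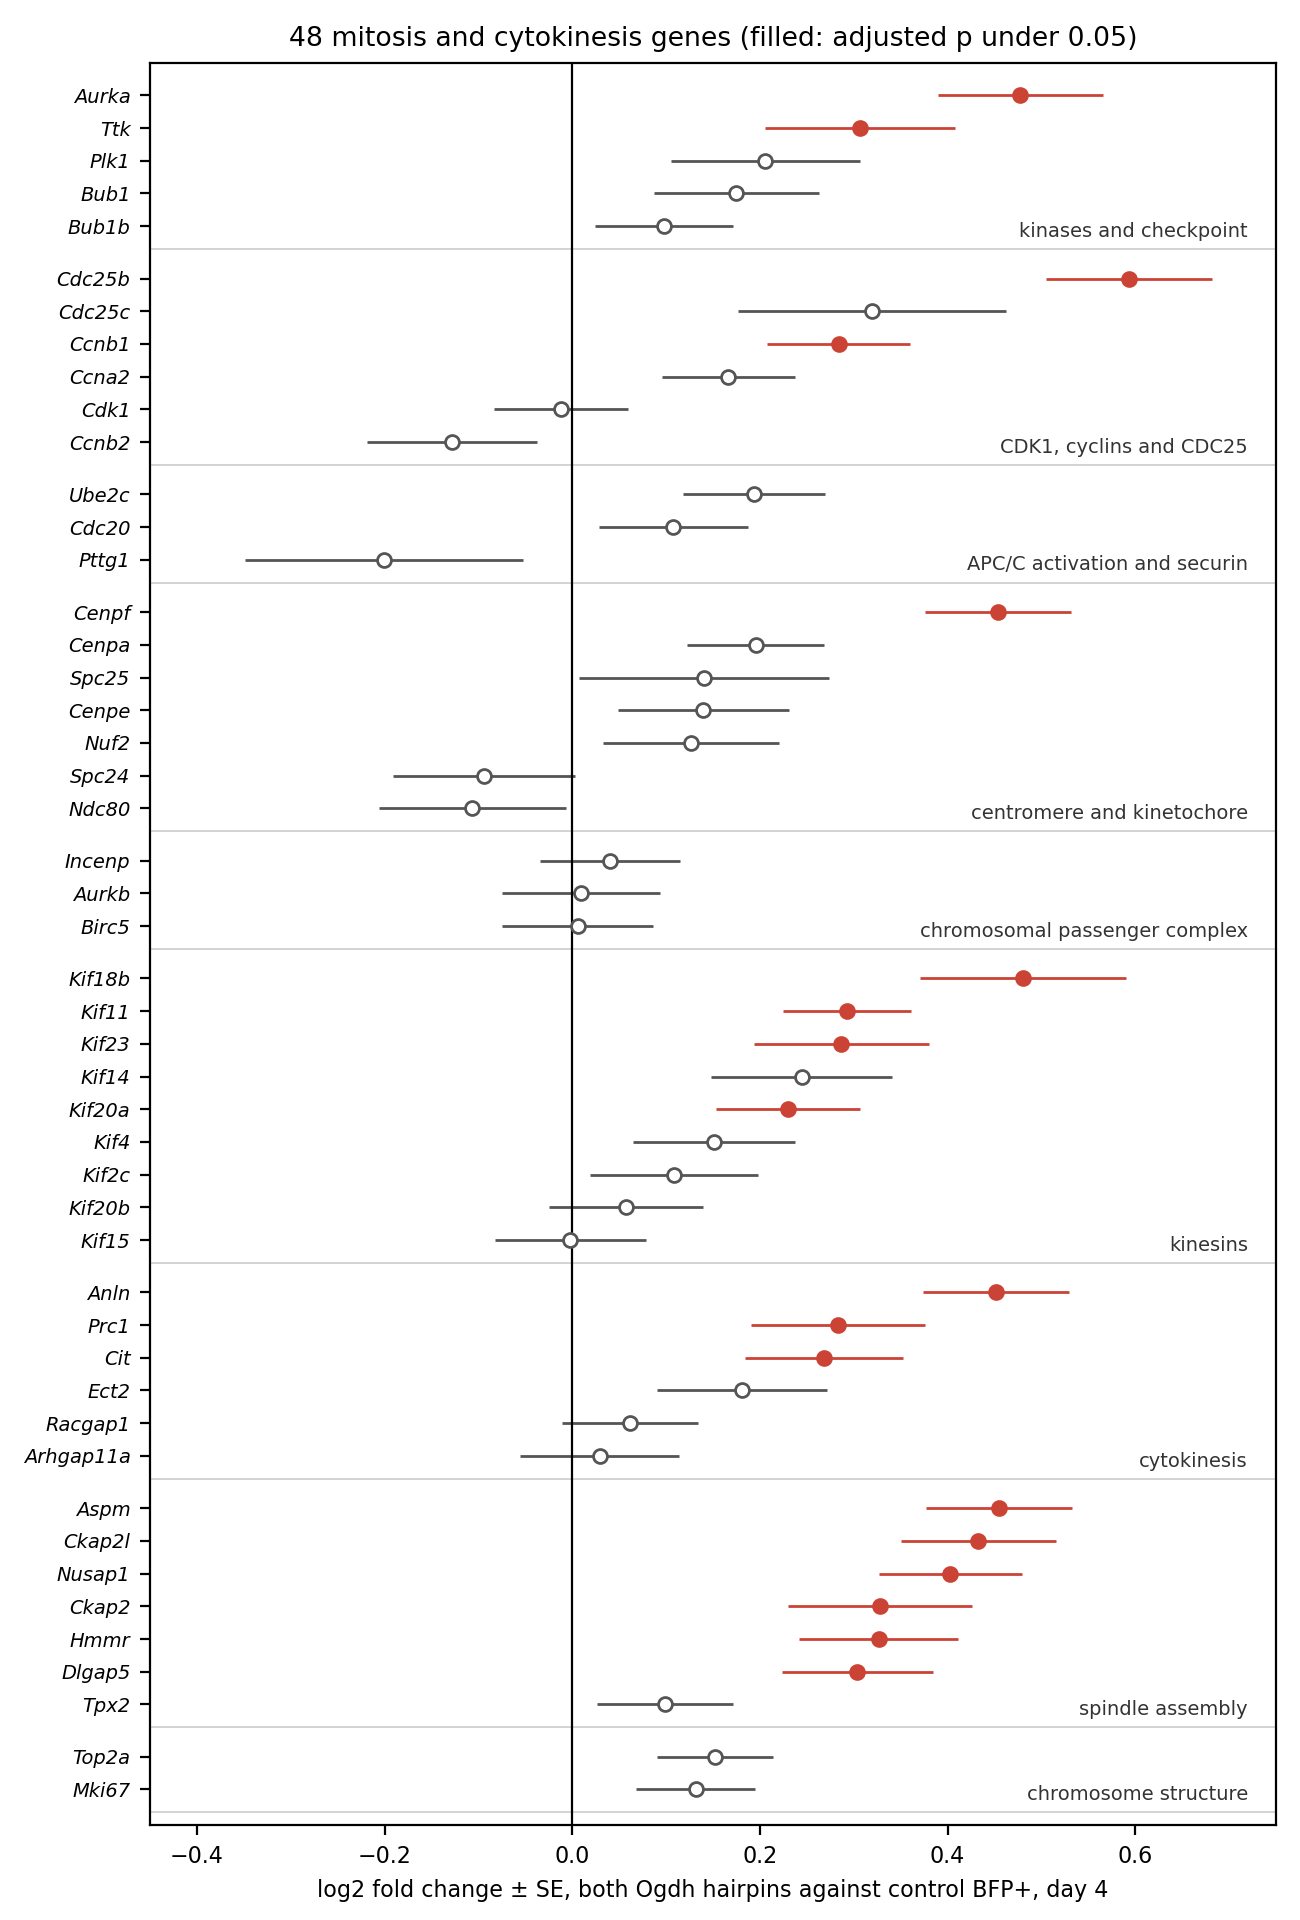
Log2 fold change with its standard error for each of the 48 genes, both Ogdh hairpins against control BFP+ cells at day 4, grouped by role; filled points passed an edgeR adjusted p under 0.05. The 18 filled points lie between 0.23 and 0.59, and no gene passed on the lower side.

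Among the kinases of the spindle and its checkpoint, 2 of 5 rose. Aurka (chr2:172356190-172370535, minus strand), the kinase that matures centrosomes and the spindle poles, measured 116 and 102 CPM in the BFP+ control, 147 and 145 CPM for shOgdh346 and 174 and 153 CPM for shOgdh2081 at day 4. It measured 108 and 108 CPM at day 0, 134 and 119 CPM in BFP- and 109 and 113 CPM in BFP+ cells at day 2, and 109 and 108 CPM in BFP- cells at day 4. The 4 hairpin libraries lay above all 10 control libraries, the next being a BFP- library of day 2 (log2 0.48 ± 0.09, edgeR adjusted p = 5.29e-05). Ttk, the checkpoint kinase also called MPS1, measured 69.5 and 73.7 CPM in the BFP+ control, 86.6 and 83 CPM for shOgdh346 and 94.3 and 89.7 CPM for shOgdh2081, and 69.2 and 75.8 CPM at day 0, 80.5 and 79.5 CPM in BFP- and 80.2 and 82.5 CPM in BFP+ cells at day 2, and 70.5 and 80.5 CPM in BFP- cells at day 4. The hairpin libraries exceeded all control libraries, though narrowly (log2 0.31 ± 0.10, edgeR adjusted p = 0.0286), and the call was lost in 9 of 15 alternatives, DESeq2 among them. Plk1, the Polo kinase of mitotic entry and exit, measured 84 and 83.5 CPM in the BFP+ control, 99.2 and 95.8 CPM for shOgdh346 and 113 and 88.8 CPM for shOgdh2081 at day 4. All 4 hairpin values were above the BFP+ control, but the change did not pass (log2 0.21 ± 0.10, edgeR adjusted p = 0.16). Bub1b, the BUBR1 subunit of the checkpoint complex that holds back the APC/C, measured 264 and 283 CPM in the BFP+ control, 286 and 318 CPM for shOgdh346 and 272 and 293 CPM for shOgdh2081. It measured 246 and 264 CPM at day 0, 250.1 and 254 CPM in BFP- and 238 and 256 CPM in BFP+ cells at day 2, and 278 and 256 CPM in BFP- cells at day 4. The groups overlapped (log2 0.10 ± 0.07, edgeR adjusted p = 0.394). Bub1, the checkpoint kinase at kinetochores, had a log2 value of 0.18 ± 0.09 that did not pass.

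Cdk1 itself was level while Cdc25b, 1 of its activating phosphatases, and 1 of its cyclins rose, which made 2 of 6 genes. Cdc25b (chr2:131186949-131198497, plus strand), the phosphatase that starts CDK1 activation at the centrosome, measured 119 and 126.8 CPM in the BFP+ control, 192 and 190.0 CPM for shOgdh346 and 157 and 188 CPM for shOgdh2081 at day 4. The lowest hairpin library stood above the highest of all 10 control libraries, a BFP- library of day 4 at 128.5 CPM (log2 0.59 ± 0.09, edgeR adjusted p = 9.53e-07). Its exons overlap Spef1 on the other strand. Ccnb1, cyclin B1, measured 198 and 208 CPM in the BFP+ control, 253 and 230.2 CPM for shOgdh346 and 242 and 249.5 CPM for shOgdh2081, and 183 and 193 CPM at day 0, 157 and 177 CPM in BFP- and 153 and 147 CPM in BFP+ cells at day 2, and 197 and 184 CPM in BFP- cells at day 4. Here too the 4 hairpin libraries lay above all controls (log2 0.28 ± 0.08, edgeR adjusted p = 0.00604). Ccna2, cyclin A2, measured 297 and 300.3 CPM in the BFP+ control, 337 and 311 CPM for shOgdh346 and 361 and 333.2 CPM for shOgdh2081, and 291 and 302 CPM at day 0, 305 and 297 CPM in BFP- and 327 and 307 CPM in BFP+ cells at day 2, and 297 and 312 CPM in BFP- cells at day 4. Its hairpin libraries were above the BFP+ control but not above all control libraries, and it did not pass (log2 0.17 ± 0.07, edgeR adjusted p = 0.101). Cdk1, the kinase, measured 332 and 339 CPM in the BFP+ control, 348 and 324 CPM for shOgdh346 and 334 and 322 CPM for shOgdh2081, and 313 and 332.8 CPM at day 0, 308 and 354 CPM in BFP- and 332 and 324 CPM in BFP+ cells at day 2, and 345.9 and 325 CPM in BFP- cells at day 4. Its 14 values overlapped across all groups (log2 -0.01 ± 0.07, edgeR adjusted p = 0.941). Ccnb2, cyclin B2, had -0.13 ± 0.09 and Cdc25c 0.32 ± 0.14 (log2), and neither passed.

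None of the 3 genes that switch the APC/C on or serve as its securin was called. At an unadjusted p under 0.05 edgeR gave 1 of them, Ube2c. Ube2c, the ubiquitin-conjugating enzyme of the APC/C, measured 201 and 201.9 CPM in the BFP+ control, 248 and 219 CPM for shOgdh346 and 225 and 222 CPM for shOgdh2081, and 198 and 177 CPM at day 0, 175 and 171 CPM in BFP- and 147 and 146 CPM in BFP+ cells at day 2, and 201 and 196 CPM in BFP- cells at day 4. All 4 hairpin libraries were above all 10 control libraries, yet the change did not pass (log2 0.19 ± 0.08, edgeR adjusted p = 0.0692). Cdc20, the activator of the APC/C at anaphase, measured 218 and 214 CPM in the BFP+ control, 250.3 and 217 CPM for shOgdh346 and 214 and 234 CPM for shOgdh2081, and 239 and 261 CPM at day 0, 231 and 226 CPM in BFP- and 209 and 181 CPM in BFP+ cells at day 2, and 234 and 205 CPM in BFP- cells at day 4. A day 0 library lay above all hairpin libraries (log2 0.11 ± 0.08, edgeR adjusted p = 0.379). Pttg1, securin, which holds separase inactive, was the member with the lowest value: it measured 31.3 and 29.8 CPM in the BFP+ control, 26.9 and 29.1 CPM for shOgdh346 and 23 and 26.8 CPM for shOgdh2081, below the BFP+ control in all 4 hairpin libraries, with log2 -0.20 ± 0.15, edgeR adjusted p = 0.383. Of all genes 19% lay below that control in the same way, and Pttg1 and Ndc80 were the only 2 of the 48.

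Of 7 centromere and kinetochore genes, Cenpf alone rose. Cenpf (chr1:189640606-189688086, minus strand), a large protein of the outer kinetochore, measured 193 and 187 CPM in the BFP+ control, 253 and 293 CPM for shOgdh346 and 253 and 255 CPM for shOgdh2081 at day 4, with all hairpin libraries above all control libraries (log2 0.45 ± 0.08, edgeR adjusted p = 1.56e-05). Cenpa, the histone H3 variant that marks the centromere, measured 242 and 237 CPM in the BFP+ control, 271 and 291 CPM for shOgdh346 and 285 and 265 CPM for shOgdh2081, and 207 and 201 CPM at day 0, 196 and 196 CPM in BFP- and 182 and 174 CPM in BFP+ cells at day 2, and 247 and 229.8 CPM in BFP- cells at day 4. It too was above every control library with both hairpins and just missed the threshold (log2 0.20 ± 0.07, edgeR adjusted p = 0.0557). Cenpe, the kinesin that carries chromosomes to the spindle equator, measured 102 and 119 CPM in the BFP+ control, 115 and 125.8 CPM for shOgdh346 and 134 and 120.4 CPM for shOgdh2081, and 108 and 105 CPM at day 0, 128.03 and 125 CPM in BFP- and 123 and 133 CPM in BFP+ cells at day 2, and 103 and 115 CPM in BFP- cells at day 4. Those ranges overlapped (log2 0.14 ± 0.09, edgeR adjusted p = 0.315). The 4 subunits of the NDC80 complex, which grips microtubule ends, gave no call: Ndc80 had -0.11 ± 0.10, Nuf2 0.13 ± 0.09, Spc24 -0.09 ± 0.10 and Spc25 0.14 ± 0.13 (log2). Spc24, the least changed gene of the class, measured 90.2 and 82.1 CPM in the BFP+ control, 84.4 and 78.7 CPM for shOgdh346 and 83.3 and 78.3 CPM for shOgdh2081, and 101.5 and 102 CPM at day 0, 100.2 and 108 CPM in BFP- and 90.9 and 87.9 CPM in BFP+ cells at day 2, and 88.9 and 88.7 CPM in BFP- cells at day 4. Its hairpin values overlapped those of the BFP+ control.

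The chromosomal passenger complex, which corrects faulty microtubule attachments and later marks the cleavage site, was level. None of its 3 genes was called, and none had an unadjusted p under 0.05. Incenp, its scaffold, measured 271 and 259 CPM in the BFP+ control, 281 and 264 CPM for shOgdh346 and 254 and 279 CPM for shOgdh2081 at day 4 (log2 0.04 ± 0.07, edgeR adjusted p = 0.767). Aurkb, its kinase, measured 155.1 and 151 CPM in the BFP+ control, 160.0 and 127.5 CPM for shOgdh346 and 143.7 and 164 CPM for shOgdh2081, and 158 and 152 CPM at day 0, 148 and 139 CPM in BFP- and 127.04 and 137 CPM in BFP+ cells at day 2, and 163 and 154.7 CPM in BFP- cells at day 4. Control and hairpin libraries overlapped (log2 0.01 ± 0.08, edgeR adjusted p = 0.958). Birc5, its survivin subunit, measured 164 and 158 CPM in the BFP+ control, 165 and 157 CPM for shOgdh346 and 175 and 155.97 CPM for shOgdh2081, and 169 and 164 CPM at day 0, 154 and 161 CPM in BFP- and 147 and 164 CPM in BFP+ cells at day 2, and 158 and 158 CPM in BFP- cells at day 4. Those values overlapped as well (log2 0.0058 ± 0.08, edgeR adjusted p = 0.977). The signs of Aurkb and Birc5 changed under some alternatives.

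Of 9 kinesins, 4 rose. Kif18b, which shortens astral microtubules at their plus ends, measured 71.4 and 72.7 CPM in the BFP+ control, 102 and 109 CPM for shOgdh346 and 68 and 107 CPM for shOgdh2081 at day 4. Replicate 1 of shOgdh2081, the shallowest library, lay below both control values and the other 3 hairpin libraries above them (log2 0.48 ± 0.11, edgeR adjusted p = 0.00115). The day 0 libraries, at 104 and 96.1 CPM, lay within the range of the hairpin libraries. Kif11, the motor also called Eg5 that pushes spindle poles apart, measured 406 and 412 CPM in the BFP+ control, 501 and 501 CPM for shOgdh346 and 511 and 494 CPM for shOgdh2081, and 362 and 369 CPM at day 0, 356 and 373 CPM in BFP- and 359 and 378 CPM in BFP+ cells at day 2, and 372 and 423 CPM in BFP- cells at day 4. Its 4 hairpin values lay close together and above every control library (log2 0.29 ± 0.07, edgeR adjusted p = 0.0015). Kif23, the motor subunit of centralspindlin, measured 92.7 and 98.9 CPM in the BFP+ control, 111 and 125.8 CPM for shOgdh346 and 111 and 120.1 CPM for shOgdh2081, and 95.5 and 100 CPM at day 0, 86.5 and 86 CPM in BFP- and 72 and 77 CPM in BFP+ cells at day 2, and 87.3 and 96.6 CPM in BFP- cells at day 4, with the hairpin libraries above all others (log2 0.29 ± 0.09, edgeR adjusted p = 0.0253), and its call was lost in 9 of 15 alternatives, DESeq2 among them. The fourth, Kif20a, a motor of the central spindle, rose by 0.23 ± 0.08 on the log2 scale (edgeR adjusted p = 0.0311). Its call was lost in 7 of 15 alternatives, DESeq2 among them. Kif15, a second motor for spindle poles, measured 185 and 181 CPM in the BFP+ control, 176 and 171 CPM for shOgdh346 and 199.6 and 189 CPM for shOgdh2081, and 161 and 162 CPM at day 0, 155.9 and 174 CPM in BFP- and 168 and 172 CPM in BFP+ cells at day 2, and 157 and 187 CPM in BFP- cells at day 4, and its groups overlapped (log2 -0.002 ± 0.08, edgeR adjusted p = 0.994). Kif14 (0.24 ± 0.10), Kif4 (0.15 ± 0.09), Kif2c (0.11 ± 0.09) and Kif20b (0.06 ± 0.08, log2) did not pass.

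Cytokinesis genes gave 3 of 6 as higher. Anln (chr9:22332012-22389188, minus strand), which anchors the contractile ring, measured 179 and 185 CPM in the BFP+ control, 237 and 243 CPM for shOgdh346 and 275 and 250.2 CPM for shOgdh2081, and 183 and 168 CPM at day 0, 163 and 182 CPM in BFP- and 166 and 179 CPM in BFP+ cells at day 2, and 189.5 and 183 CPM in BFP- cells at day 4. Every hairpin library exceeded every control library, BFP- and day 0 cells included (log2 0.45 ± 0.08, edgeR adjusted p = 1.59e-05). Cit, the citron kinase of the midbody, measured 152 and 173 CPM in the BFP+ control, 189 and 212 CPM for shOgdh346 and 217 and 181 CPM for shOgdh2081 at day 4. All hairpin libraries were above both BFP+ controls but overlapped the BFP- and day 0 libraries (log2 0.27 ± 0.08, edgeR adjusted p = 0.0209). Prc1, which bundles microtubules of the central spindle, measured 99.9 and 110.0 CPM in the BFP+ control, 127.2 and 116 CPM for shOgdh346 and 121 and 134 CPM for shOgdh2081, and 95.8 and 109 CPM at day 0, 101.5 and 103 CPM in BFP- and 111 and 98.8 CPM in BFP+ cells at day 2, and 88.7 and 100 CPM in BFP- cells at day 4. Its hairpin libraries lay above all controls (log2 0.28 ± 0.09, edgeR adjusted p = 0.0261). The calls of Cit and Prc1 were both lost without the filter on low counts, with thinned counts and with DESeq2. Arhgap11a, a GTPase-activating protein for RhoA, measured 139.7 and 152 CPM in the BFP+ control, 136 and 159 CPM for shOgdh346 and 166 and 149 CPM for shOgdh2081, and 149 and 155.8 CPM at day 0, 128.03 and 126.9 CPM in BFP- and 128.4 and 142.4 CPM in BFP+ cells at day 2, and 125.5 and 136 CPM in BFP- cells at day 4. Its groups overlapped (log2 0.03 ± 0.08, edgeR adjusted p = 0.859). Ect2, which activates RhoA at the furrow, had 0.18 ± 0.09 and its partner Racgap1 0.06 ± 0.07 (log2), neither of which passed.

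Spindle assembly was the class with the highest share, 6 of 7. Aspm (chr1:139454772-139494091, plus strand), which focuses microtubules at the spindle poles, measured 179 and 188 CPM in the BFP+ control, 237 and 276 CPM for shOgdh346 and 250.02 and 252 CPM for shOgdh2081, and 149 and 162 CPM at day 0, 166 and 156.5 CPM in BFP- and 151 and 167 CPM in BFP+ cells at day 2, and 170.3 and 177 CPM in BFP- cells at day 4. No control library reached the lowest hairpin library (log2 0.46 ± 0.08, edgeR adjusted p = 1.6e-05). Ckap2l (chr2:129268210-129297212, minus strand), a microtubule-binding protein of the spindle, measured 123 and 135.2 CPM in the BFP+ control, 186 and 179.7 CPM for shOgdh346 and 170.0 and 162 CPM for shOgdh2081, and 128.5 and 123 CPM at day 0, 128.9 and 132 CPM in BFP- and 115 and 116 CPM in BFP+ cells at day 2, and 133 and 141.3 CPM in BFP- cells at day 4. The hairpin libraries were again the highest 4 (log2 0.43 ± 0.08, edgeR adjusted p = 9.4e-05). Nusap1, which bundles microtubules near chromosomes, measured 191 and 210.3 CPM in the BFP+ control, 268 and 269 CPM for shOgdh346 and 266 and 257 CPM for shOgdh2081 at day 4, with the same order (log2 0.40 ± 0.08, edgeR adjusted p = 7.91e-05), and its exons overlap Oip5 on the other strand. Ckap2 rose by 0.33 ± 0.10, Hmmr by 0.33 ± 0.08 and Dlgap5, the kinetochore fiber protein HURP, by 0.30 ± 0.08 (log2). Their edgeR adjusted p-values were 0.0146, 0.00426 and 0.00511. The calls of Ckap2 and Dlgap5 were each lost in 4 of 15 alternatives, thinned counts among them, and that of Ckap2 also with DESeq2. Tpx2, the activator of Aurora A on the spindle, measured 255 and 279.8 CPM in the BFP+ control, 290.2 and 301 CPM for shOgdh346 and 294 and 268 CPM for shOgdh2081, and 261 and 269.9 CPM at day 0, 249.6 and 256 CPM in BFP- and 242 and 249 CPM in BFP+ cells at day 2, and 258 and 255 CPM in BFP- cells at day 4. Its hairpin and control ranges overlapped (log2 0.10 ± 0.07, edgeR adjusted p = 0.377).

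Both genes of chromosome structure, the most abundant of the 48, were above the BFP+ control in all 4 hairpin libraries without passing the test. Top2a measured 1357 and 1377 CPM in the BFP+ control, 1464 and 1618 CPM for shOgdh346 and 1512 and 1495 CPM for shOgdh2081, and 1316 and 1314 CPM at day 0, 1199.8 and 1294 CPM in BFP- and 1198 and 1212 CPM in BFP+ cells at day 2, and 1276 and 1346 CPM in BFP- cells at day 4, with the hairpin libraries above all others (log2 0.15 ± 0.06, edgeR adjusted p = 0.08). Mki67 measured 1115 and 1218 CPM in the BFP+ control, 1227 and 1372 CPM for shOgdh346 and 1261 and 1261 CPM for shOgdh2081 at day 4 (log2 0.13 ± 0.06, edgeR adjusted p = 0.153). At an unadjusted p under 0.05 edgeR gave both.

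**Figure D3:**
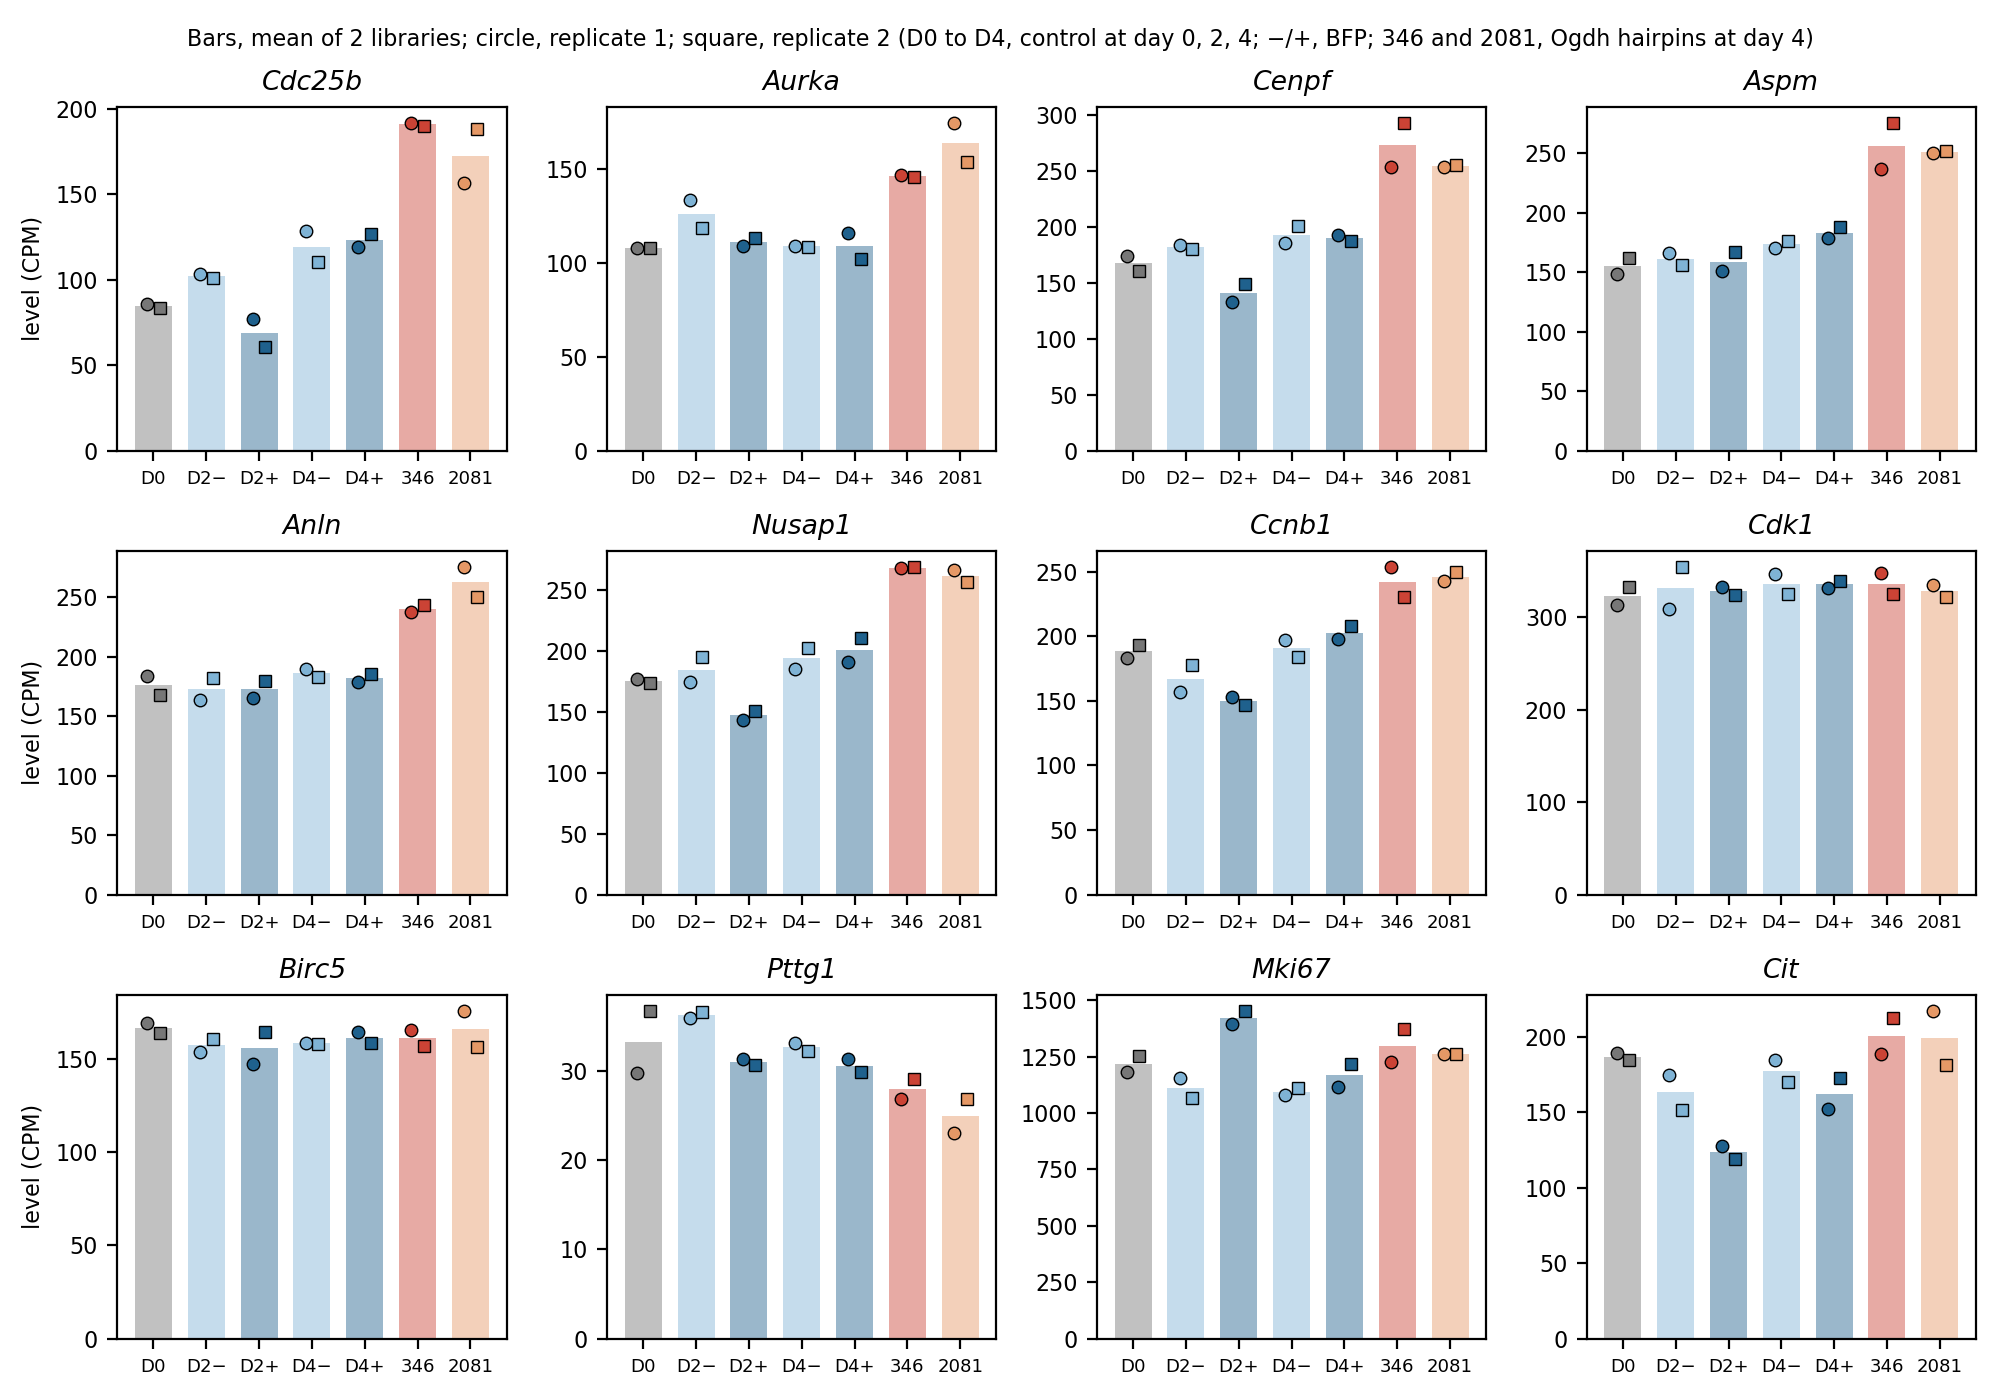
Level in CPM of 12 of the 48 genes in each group, with bars at the mean of 2 libraries and a point for each library; the vertical axes start at 0 and differ between panels. Cdc25b, Aurka, Cenpf, Aspm, Anln, Nusap1 and Ccnb1 were higher with both hairpins, Cdk1 and Birc5 overlapped across groups, and Cdc25b, Cenpf, Nusap1, Ccnb1 and Cit were lowest in control BFP+ cells at day 2.

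Each hairpin alone gave the same direction. With shOgdh346, 14 of the 48 rose and none fell, where 11.2% of all genes were called, 5.58% as higher and 5.6% as lower. With shOgdh2081, 14 rose and none fell, where 11.6% of all genes were called, 6.02% as higher and 5.53% as lower. DESeq2 called 9 and 7 as higher and none as lower. Its share of all genes in these comparisons is not reported here, and the shares above are those of edgeR. Both comparisons use the same control libraries, so their likeness is not independent support. The 3 called genes with the widest change were Cdc25b (0.64 ± 0.10), Kif18b (0.53 ± 0.12) and Ckap2l (0.51 ± 0.09) with shOgdh346, and Cdc25b (0.55 ± 0.10), Aurka (0.54 ± 0.10) and Anln (0.51 ± 0.09, log2) with shOgdh2081. Each hairpin called 12 genes that the other also called: Aurka, Ccnb1, Cdc25b, Cenpf, Kif11, Kif18b, Anln, Nusap1, Hmmr, Dlgap5, Aspm and Ckap2l. The direct comparison of the hairpins, which shares no control, called none of the 48 with edgeR or with DESeq2, none had an unadjusted p under 0.05, and edgeR called 0.0834% of all genes (0.0649% as higher and 0.0185% as lower with shOgdh2081). With 1 library of the groups compared left out at a time, fewer of the 48 were called for either hairpin against the control. The median log2 fold change then lay between 0.17 and 0.22 for shOgdh346 and between 0.15 and 0.20 for shOgdh2081. The share of all genes in these fits is not reported here.

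Against the other control population of day 4, the BFP- cells, 23 of the 48 rose and none fell, with a median of 0.20 (log2). Of all genes edgeR called 20.8%, 10.5% as higher and 10.3% as lower. DESeq2 called 15 of the 48 as higher and none as lower, and its share of all genes there is not reported here. Cdc25b (0.65 ± 0.08), Aspm (0.53 ± 0.07) and Aurka (0.49 ± 0.08, log2) had the widest change. Plk1, Bub1, Ube2c, Cenpa, Kif14, Ect2, Top2a and Mki67 passed here and not against BFP+ cells, while Ttk, Kif20a and Cit passed against BFP+ cells and not here. The comparison of the 2 control populations with each other, given further on, called none of these genes. The hairpin libraries are the same in both comparisons. Thinned counts called 11 of the 48 against BFP- cells. With 1 library of the groups compared left out at a time, fewer of the 48 were called. The median log2 fold change then lay between 0.18 and 0.24. The share of all genes in these settings is not reported here.

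Control libraries alone showed the other end of the range, in induced cells at day 2. Between BFP+ and BFP- control cells at day 2, 5 of the 48 fell, 1 rose and the median was -0.12 (log2), where 6.23% of all genes were called, 3.22% as lower and 3% as higher. Cdc25b measured 85.5 and 83.6 CPM at day 0, 103 and 100.97 CPM in BFP- and 77.1 and 60.7 CPM in BFP+ cells at day 2, and 128.5 and 110.2 CPM in BFP- cells at day 4. Its BFP+ day 2 values were the lowest of all libraries (log2 -0.52 ± 0.12, edgeR adjusted p = 0.00229). Cenpf measured 174 and 160.1 CPM at day 0, 184 and 180.5 CPM in BFP- and 133 and 149 CPM in BFP+ cells at day 2, and 185 and 201 CPM in BFP- cells at day 4, again with the lowest 2 values in BFP+ cells of day 2 (log2 -0.39 ± 0.10, edgeR adjusted p = 0.006). Cit measured 189 and 184 CPM at day 0, 175 and 152 CPM in BFP- and 127.7 and 119 CPM in BFP+ cells at day 2, and 185 and 170.2 CPM in BFP- cells at day 4, with the same lowest pair (log2 -0.38 ± 0.10, edgeR adjusted p = 0.0129). Racgap1 (-0.28 ± 0.09), the GTPase-activating subunit of centralspindlin, and Nusap1 (-0.35 ± 0.09, log2) also fell. Mki67 went the other way: it measured 1179.9 and 1251 CPM at day 0, 1153 and 1067 CPM in BFP- and 1393 and 1452 CPM in BFP+ cells at day 2, and 1079 and 1109 CPM in BFP- cells at day 4, and its highest 2 libraries of all 14 were the BFP+ cells of day 2 (log2 0.36 ± 0.07, edgeR adjusted p = 0.000456). In 23 of the 48 both BFP+ libraries lay below both BFP- libraries, as in 23.5% of all genes, and in 17 of the 48 they were the lowest 2 of the 10 control libraries, as in 9.41% of all genes. The count of 6 was 3 with thinned counts and 2 with DESeq2. With 1 library of these groups left out at a time, fewer of the 48 and fewer of all genes were called in each fit. The median log2 fold change of the 48 then lay between -0.13 and -0.03.

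At day 4 the same comparison of BFP+ with BFP- control cells called none of the 48 with edgeR or with DESeq2, and 1, Ndc80, had an unadjusted p under 0.05; 0.0741% of all genes were called, 0.0371% in each direction. The change between the days in the BFP+ against BFP- difference was tested directly and called none of the 48 with either tool, although 9 had an unadjusted p under 0.05, and 0.658% of all genes were called (0.417% as higher and 0.241% as lower). Cdc25b came nearest, with log2 0.58 ± 0.15, edgeR adjusted p = 0.0534. Thinned counts, the replicate block and the transcript length offset each called 1 of the 48 for this change.

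Against untreated day 0 cells, BFP+ cells at day 2 had 10 of the 48 lower and 2 higher, where 17.9% of all genes were called, 8.77% as lower and 9.1% as higher. The 10 were Ccnb1, Cdc20, Ube2c, Incenp, Kif14, Kif18b, Kif23, Racgap1, Cit and Nusap1, and the 2 higher were Bub1 and Mki67. Incenp measured 301 and 334 CPM at day 0, 242 and 236 CPM in BFP- and 197 and 227 CPM in BFP+ cells at day 2, and 284 and 259.8 CPM in BFP- cells at day 4. Its day 0 libraries were the highest of all 14 (log2 -0.60 ± 0.09, edgeR adjusted p = 6.57e-07). Cit fell by a like amount (log2 -0.59 ± 0.10, edgeR adjusted p = 1.8e-05). Kif18b measured 104 and 96.1 CPM at day 0, 80.5 and 67.6 CPM in BFP- and 67.8 and 66.8 CPM in BFP+ cells at day 2, and 88.4 and 75.7 CPM in BFP- cells at day 4, so that day 0 stood above every other control library (log2 -0.57 ± 0.13, edgeR adjusted p = 0.00111). Of the 12 genes lower in BFP+ cells at day 2 against either reference, 7 rose after knockdown, as did 18 of all 48. The 7 were Ccnb1, Cdc25b, Cenpf, Kif18b, Kif23, Cit and Nusap1. Whether 7 of 12 differs from 18 of 48 was not tested. With 1 library of either group left out at a time, fewer of the 48 were called between BFP+ cells at day 2 and day 0. The median log2 fold change then lay between -0.13 and -0.12. The share of all genes in these fits is not reported here.

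The remaining control comparisons with day 0 called few of the 48. BFP- cells at day 2 had 2 higher (Bub1 and Hmmr) and 2 lower (Incenp and Kif18b), where 10.3% of all genes were called, 5.33% as higher and 4.98% as lower. Bub1 measured 113 and 97.6 CPM at day 0, 127.6 and 146 CPM in BFP- and 126.7 and 139.7 CPM in BFP+ cells at day 2, 120.1 and 129.8 CPM in BFP- and 137 ± 9.63 CPM (SD, n = 2, the higher library at 143.6 CPM) in BFP+ cells at day 4, and 150.1 and 164 CPM for shOgdh346 and 168 and 147 CPM for shOgdh2081. Its day 0 libraries were the lowest of all 14 (log2 0.39 ± 0.10, edgeR adjusted p = 0.00749). Kif18b and Incenp fell by 0.46 ± 0.12 and 0.41 ± 0.08 on the log2 scale. BFP- cells at day 4 had Cdc25b (0.48 ± 0.10) and Hmmr (0.33 ± 0.09) higher and Plk1 (-0.32 ± 0.10, log2) lower, where 8.03% of all genes were called, 3.84% as higher and 4.19% as lower. Hmmr, a spindle protein that binds hyaluronan, measured 156.1 and 140.2 CPM at day 0, 164 and 196 CPM in BFP- and 177 and 167 CPM in BFP+ cells at day 2, and 165 and 201.97 CPM in BFP- cells at day 4, and 189.8 and 173 CPM in the BFP+ control, 216 and 249 CPM for shOgdh346 and 232 and 228 CPM for shOgdh2081 with the lowest values at day 0. Plk1 measured 97.6 and 98.4 CPM at day 0, 91.6 and 77 CPM in BFP- and 90.9 and 89.3 CPM in BFP+ cells at day 2, and 84.3 and 75 CPM in BFP- cells at day 4. BFP+ cells at day 4 had Cdc25b (0.53 ± 0.11) and Bub1 (0.37 ± 0.10) higher and Kif18b (-0.47 ± 0.12) and Incenp (-0.26 ± 0.08, log2) lower, where 7.11% of all genes were called, 3.46% as higher and 3.65% as lower. These 3 comparisons share the day 0 libraries. Each of these counts moved by more than 1.5 times without single libraries of either side, and the ranges stand with the alternatives. Over all comparisons, 19 of the 48 genes were never called, Cdk1, Ccna2, Aurkb, Birc5 and Tpx2 among them.

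**Figure D4:**
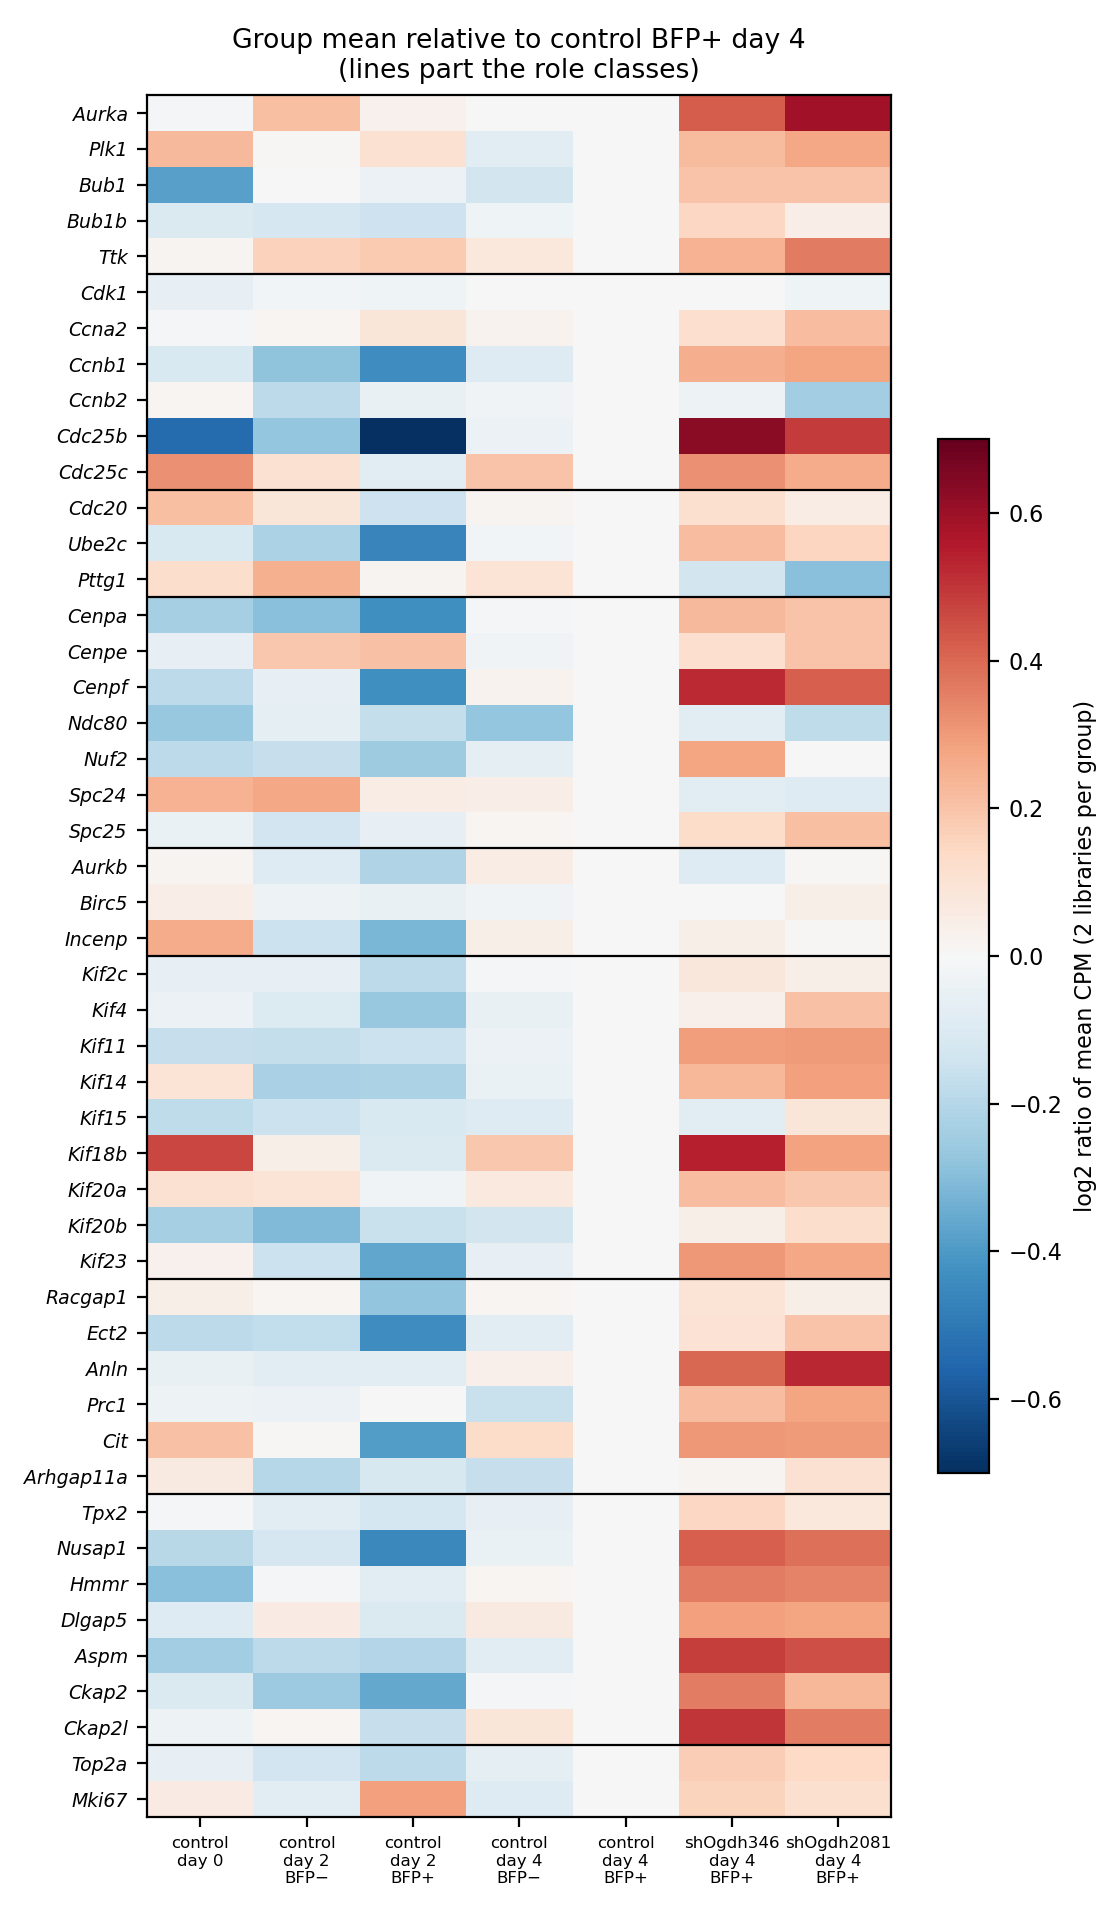
Log2 ratio of the mean CPM of each group (2 libraries) to that of control BFP+ cells at day 4, for the 48 genes in rows grouped by role. Both hairpin columns are mostly red, with 42 of the 48 genes positive in the test. The BFP+ column of day 2 has more blue cells than any other column, while Mki67 is red in it. The day 0 column and both BFP- columns also hold many blue cells.

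Genes around the 48 moved unevenly. The following lists were chosen by role, and their counts are set beside the 7.72% of all genes called as higher and the 8.36% called as lower. DESeq2 counts stand beside the 327 of 10791 genes that it called as higher and the 373 as lower. Of 77 other mitosis genes tested, 12 rose and 3 fell after knockdown, with a median of 0.10 (log2), and DESeq2 called 7 as higher and 1 as lower. Fam83d, a spindle protein, rose by 0.64 ± 0.22 and Knl1, the kinetochore platform of the checkpoint, by 0.53 ± 0.09, while Arpp19, an inhibitor of the phosphatase that opposes CDK1, fell by 0.48 ± 0.10 (log2). Fam83d was low, at 3.85 to 22.2 CPM. With single hairpins it was called for shOgdh346 (edgeR adjusted p = 0.0475) and not for shOgdh2081 (edgeR adjusted p = 0.126). Of 17 APC/C genes, none rose and 1 fell, the subunit Anapc13 (-0.55 ± 0.15); DESeq2 called none of them, and edgeR gave 1 as higher and 2 as lower at an unadjusted p under 0.05. Of 13 genes that brake or gate mitotic entry, Ccng2, an atypical cyclin, rose by 0.81 ± 0.23 and the phosphatase Cdc25a fell by 0.24 ± 0.08 (log2). DESeq2 called none of the 13, Cdc25a was called with neither hairpin alone (edgeR adjusted p = 0.0609 for shOgdh346 and 0.145 for shOgdh2081), and Ccng2 was not called with shOgdh2081 (edgeR adjusted p = 0.0617). Cdkn1a, the CDK inhibitor p21, was low at 2.73 to 11.3 CPM and did not pass (log2 -0.56 ± 0.30, edgeR adjusted p = 0.209).

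Of 23 transcription regulators of the cell cycle, 2 rose and 4 fell, with a median of -0.11 (log2). Foxm1, the forkhead factor of the G2 and mitosis program, measured 114 and 125 CPM in the BFP+ control, 106 and 106 CPM for shOgdh346 and 118 and 119 CPM for shOgdh2081 at day 4 and did not pass (log2 -0.09 ± 0.09, edgeR adjusted p = 0.582). Mybl2, the B-MYB factor that works with it, measured 117 and 123 CPM in the BFP+ control, 94.3 and 80.4 CPM for shOgdh346 and 89.9 and 85.6 CPM for shOgdh2081. All 4 hairpin libraries lay below every control library (log2 -0.43 ± 0.09, edgeR adjusted p = 0.000621). Lin9, of the MuvB core that binds the CHR, rose by 0.42 ± 0.12, while E2f3 fell by 0.53 ± 0.11 and Tfdp1, the partner of E2F factors, by 0.40 ± 0.07 (log2). Tfdp1 had log2 -0.57 ± 0.08 with shOgdh346. With shOgdh2081 it had log2 -0.24 ± 0.08 and was not called (edgeR adjusted p = 0.0509). The difference between the hairpins did not pass for Tfdp1 (log2 0.33 ± 0.09, edgeR adjusted p = 0.136). DESeq2 called none of the 23 as higher and 3 as lower, so the call of Lin9 was lost, and with shOgdh346 alone edgeR did not call it (adjusted p = 0.0823).

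DNA replication genes, which serve S phase, went the opposite way. Of 47 tested, none rose and 21 fell, with a median of -0.20 (log2). At an unadjusted p under 0.05 edgeR gave 0 as higher and 27 as lower, and DESeq2 called 0 as higher and 12 as lower. Tk1, thymidine kinase, measured 193 and 201 CPM in the BFP+ control, 134 and 140.3 CPM for shOgdh346 and 140.4 and 133 CPM for shOgdh2081. Its 4 hairpin libraries lay below all control libraries (log2 -0.54 ± 0.08, edgeR adjusted p = 8.96e-07). Pold2, a subunit of DNA polymerase delta, fell by 0.50 ± 0.10, Rfc2, of the clamp loader, by 0.49 ± 0.09 and Ccne1, cyclin E1 of S phase entry, by 0.47 ± 0.14 (log2). No difference between the lists was tested.

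**Figure D5:**
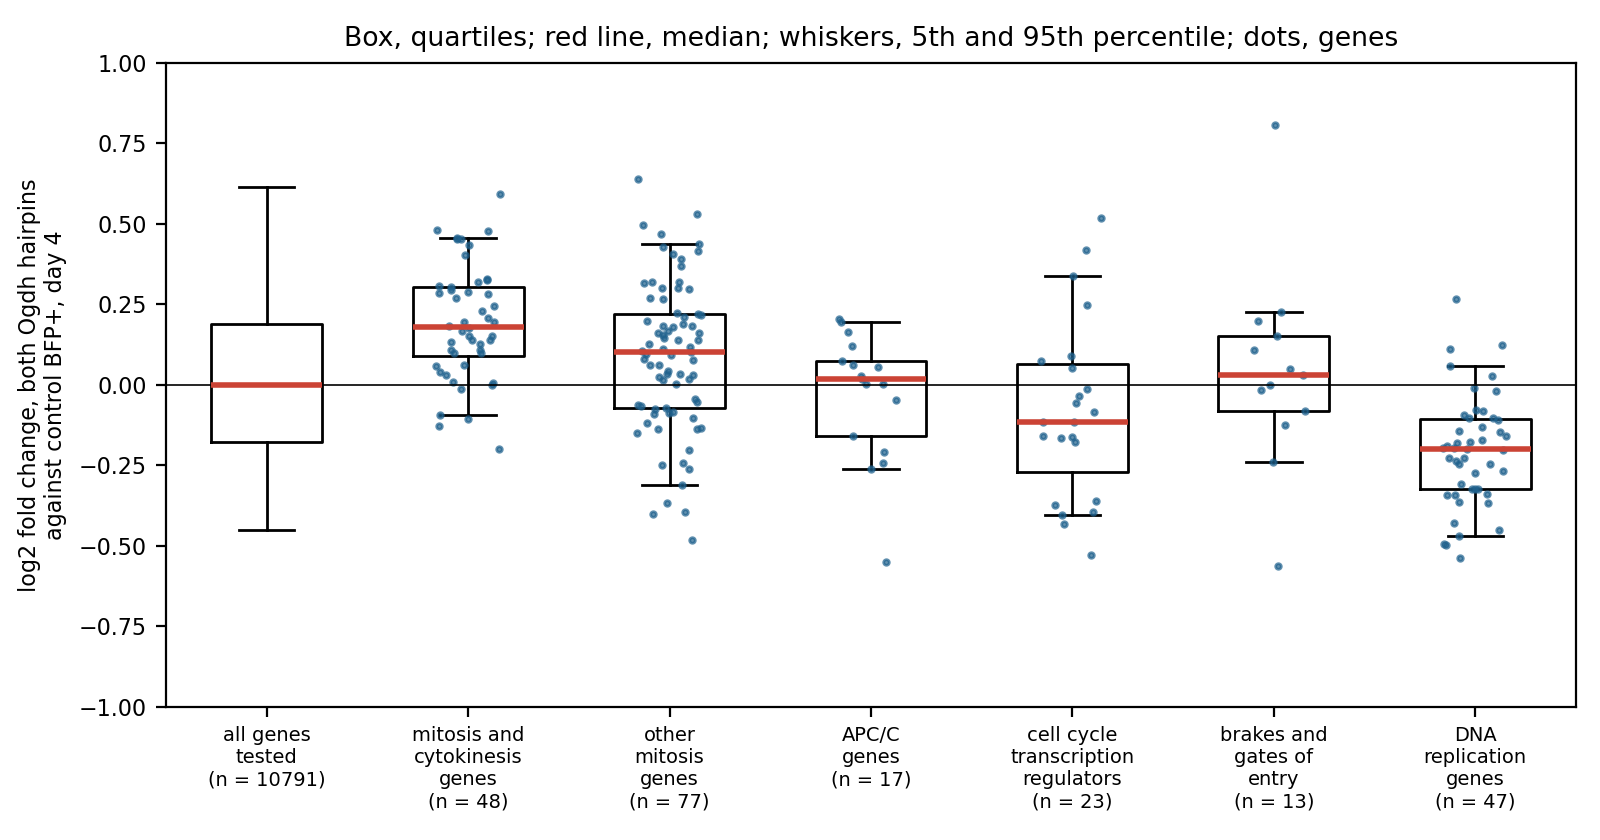
Log2 fold change of both Ogdh hairpins against control BFP+ cells at day 4 for all 10791 tested genes and for the genes of each list; boxes show quartiles, red lines medians, whiskers the 5th and 95th percentiles and dots single genes (the box of all genes has no dots). The median is 0.18 for the 48 mitosis and cytokinesis genes, 0.10 for other mitosis genes and -0.20 for DNA replication genes.

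Other features of the libraries moved with the knockdown and are given as measured. The summed level of the 11 erythroid marker genes was 1339 to 1418 CPM for shOgdh346 and 1229 to 1285 CPM for shOgdh2081, against 1045 to 1088 CPM in control BFP+ and 1145 to 1265 CPM in control BFP- cells at day 4, and 6 of the 11 rose against BFP+ cells. Against BFP- cells 3 of the 11 rose, with a median of -0.02 (log2), and the day 0 and BFP- day 2 controls, at 1309 to 1339 CPM, lay within the range of the hairpin libraries. Of the 9 mast cell and basophil genes, 5 were tested, of which 2 rose and 1 fell. Ms4a2 (log2 1.03) and Il1rl1 (log2 0.57) rose, Gata2 (log2 -1.03) fell, and Cpa3 and Hdc did not pass. The summed level of the 9 was 874 to 879 CPM for shOgdh346 and 841 to 879 CPM for shOgdh2081. The highest control library, of BFP+ cells at day 4, had 773 CPM, so all hairpin libraries lay above all control libraries. Of 3 stromal genes tested, Pdgfrb (log2 -1.43, edgeR adjusted p = 0.0306) and Col1a2 (log2 -0.72, edgeR adjusted p = 0.00246) fell. The third, Dcn, did not pass (log2 0.07, edgeR adjusted p = 0.884). Pdgfrb was near the floor, at 0.43 to 4.39 CPM. The 2 shallowest libraries, with 1159021 and 913482 counts, are both hairpin libraries (shOgdh346 replicate 2 and shOgdh2081 replicate 1), and without them 15 of the 18 genes were still called. The library names in the descriptions hold numbers. These were split into 2 parts, 1 to 15 and 16 to 30, each with 1 library of every group. No label gives this split or names it as a batch. Within the first, the median of the 48 genes for the hairpins against control BFP+ cells was 0.24 and 39 were positive, and within the second it was 0.16 and 40 were positive (log2, 1 control library each). The part that erythroid or mast cell content plays in the rise of mitosis genes was not tested.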

How the data were processed

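RNA of 14 libraries in 7 groups of 2 was analysed. The authors deposited raw counts per gene, whole numbers that were not normalized, and an annotated transcript length in bases (another unit), for 53465 genes. Per the labels' protocols, polyA RNA was made into TruSeq libraries. The labels' protocols name HTSeq and a human build, while the submitters' processing notes name the mouse builds mm10 and GRCm38, with featureCounts 1.6.3 and STAR 2.6.1a and with Trimmomatic 0.36 and FastQC 0.11.5. The identifiers are mouse, and 45 of the 48 genes have the same coordinates in GENCODE M21 on GRCm38. For strand and for reads with several matches, the treatment was not given in the sources used here.

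Totals of 913482 to 10271698 counts were deposited per library. Genes were filtered with filterByExpr, which left 10791, scaled by the trimmed mean of M values (TMM) and fitted in edgeR 4.0.16 (R 4.3.3), whose quasi-likelihood test was used. All 14 libraries were in a single model with the group as its only term (5.04% biological coefficient of variation, with 7 residual and 57.6 prior degrees of freedom). Calls needed a two-sided Benjamini-Hochberg adjusted p of less than 0.05 over all 10791 genes. Shares of all genes are for these edgeR calls unless another setting is named. For counts at an unadjusted p the share of all genes was not counted. Levels are counts-per-million (CPM) with TMM factors, except that cell type markers use the whole library total. A ± after a log2 fold change is its standard error. The scripts were tested on simulated data. No pair of replicates looked like a single library counted again (chi-square per degree of freedom 1.16 to 2.71).

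The members and the gene lists were chosen with earlier results of these data known. Levels in every library are given, in each role class, for the 3 genes (2 in classes of 3 or fewer) with the smallest adjusted p in knockdown against control BFP+ cells and for the least changed gene, and in each other comparison for the 3 called genes with the widest change. From each other list the 4 called genes with the widest change are named, with Foxm1, Mybl2 and Cdkn1a in any case; items that the rule names but the text leaves out are not reported here. Promoters are from a RefSeq table on GRCm38.p6. Motif searches were added after the design was set. Alternatives were relative log expression factors, no filter on low counts, a replicate block, a block for library number, only the groups compared, seeded binomial thinning to the shallowest library, leaving out the 2 shallowest libraries, a transcript length offset, DESeq2 1.42.0 and leaving out each library.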

Additional observations from a re-analysis of the deposited data

How the results depend on the processing

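Counts of called genes among the 48 changed with the processing as follows, and no called gene of the knockdown comparison changed sign. Thinned to equal depth, 11 were called for both hairpins against BFP+ control cells (18 before), 8 for shOgdh346 (14), 6 for shOgdh2081 (14), 11 against BFP- cells (23), 3 for BFP+ against BFP- cells at day 2 (6), 1 for the change of that difference to day 4 (0) and 0 for BFP- cells against day 0 at day 2 (4) and at day 4 (3). DESeq2 called 9 for shOgdh346, 7 for shOgdh2081, 15 against BFP- cells, 2 for BFP+ against BFP- cells at day 2, and 1 each for BFP- cells at day 2, BFP- cells at day 4 and BFP+ cells at day 4 against day 0 (4 in the last). With no filter on low counts, 8 were called for shOgdh2081, 15 against BFP- cells and 2 for BFP+ cells at day 4 against day 0, a comparison that called 10 when only its own groups were fitted. Without the 2 shallowest libraries shOgdh2081 had 7, and the length offset gave 1 for the change between days. For BFP+ against BFP- cells at day 2, thinned counts called 91 of all 9206 genes tested as higher and 98 as lower. DESeq2 called 107 of 10791 as higher and 116 as lower there. Apart from both hairpins against BFP+ cells, shares of all genes under these settings are not reported here for the other comparisons. Fewer counts and fewer libraries are part of the thinned and left-out settings. For the other settings the cause was not tested.

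Leaving out 1 library at a time gave 7 to 17 for both hairpins, 5 to 11 for shOgdh346, 3 to 10 for shOgdh2081, 0 to 0 for the difference between hairpins, 15 to 22 against BFP- cells, 2 to 4 for BFP+ against BFP- cells at day 2, 0 to 0 at day 4 and 0 to 1 for their difference. Against day 0 the ranges were 1 to 5 (BFP- day 2), 0 to 6 (BFP- day 4), 4 to 8 (BFP+ day 2) and 1 to 2 (BFP+ day 4). Both hairpins against BFP+ cells, and BFP+ against BFP- cells at day 2, also had fewer of all genes called in each such fit. For the other comparisons the share of all genes is not reported here. A group left with 1 library is assumed to vary like the others.

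Same-numbered replicates were not shown to be paired, since only 2 of 21 pairs of groups had a correlation of deviations over 0.1 (range -0.0818 to 0.148). The fit with a replicate block kept all 18 genes, called 19, and called 1 gene for the change between days.

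The genes that changed sign were not called and lay near 0. Cdk1 was 0.0017 without the 2 shallowest libraries, Aurkb -0.0064 with no filter, -0.074 thinned and -0.0011 with DESeq2, Birc5 -0.0094 with no filter and -0.0028 without the 2 shallowest, Kif15 0.00097 with relative log expression factors and 0.0029 with DESeq2, and Arhgap11a -0.015 thinned and -0.023 without the 2 shallowest. With single libraries left out the log2 ranges were -0.043 to 0.0041 (Cdk1), -0.11 to 0.051 (Aurkb), -0.023 to 0.063 (Birc5), -0.0074 to 0.082 (Incenp), -0.023 to 0.024 (Kif15) and -0.031 to 0.11 (Arhgap11a).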
